A study of Mus musculus with 9 samples.

Results

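Retinoid genes were followed in ovulated mouse oocytes halted at metaphase of meiosis II, beginning with the retinol transporter gene Stra6l and going on to 9 further genes that take retinol to its nuclear receptors: Stra6, Rdh10, Rdh11, Aldh1a2, Rara, Rarb, Rarg, Rxra and Rxrb. All 10 symbols were found among the 24736 gene symbols of the deposited tables. Stra6l was picked because its level differed between stress and control oocytes in these same libraries, so its values are given as a description without a test. The other 9 genes were listed for their place in the pathway, with earlier results of these data known.

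RNA was sequenced from 9 libraries, each made from 15 oocytes of 1 mouse, with 3 mice per group. All mice were ICR females labelled as 4 to 5 weeks old, and all were super-ovulated with 7.5 IU of PMSG and 7.5 IU of HCG, with oocytes taken from the oviduct 16 hours after HCG and freed of cumulus cells with hyaluronidase. The KYZY mice were stressed for 6 weeks and then received 0.1 ml of the Kai Yu Zhong Yu herbal decoction by gavage each day for 4 weeks. The stress mice went through a chronic unpredictable mild stress model (tail pinch, cold swim, food or water deprivation, wet bedding, continuous light or restraint) for the same 6 weeks, and the control mice were not stressed. The KYZY libraries carry another sequencing description than the stress and control libraries, and no vehicle-treated stressed mice are named in the labels, so recipe, gavage, elapsed time and sequencing cannot be told apart.

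Retinol, or vitamin A alcohol, travels in blood on a binding protein and enters cells through membrane receptors. Inside the cell it is oxidised first to retinal and then to retinoic acid, the step that commits it to signalling. Retinoic acid binds the RAR receptors, which sit on DNA as partners of the RXR receptors at direct repeats of a short core motif and switch nearby genes on. In the ovary the pathway is best known for starting meiosis in fetal germ cells through Stra8.

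The tables hold estimated counts, given here as CPM, counts scaled to a common library size by the TMM method. Library totals ran from 46324094 to 106990821 counts, and between 13257 and 15802 genes had a value above 0. Counts of 4 were more frequent than counts of 3 or 5. In control 1, 401 genes had a count of 4, against 53 at 3 and 224 at 5. On this basis a read pair was assumed to be 4 counts, and the floor for a low gene was set at 3 such pairs. That is 12 counts and lay between 0.105 and 0.245 CPM, depending on the library. Floors cover counting error only. The cells were oocytes by their markers: all 12 oocyte markers were above 0 in every library, and the oocyte growth factor Gdf9 stood at 9848 to 16020 CPM.

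Libraries differed in RNA of other cells. The summed level of 28 cumulus and granulosa markers was 37.2, 379 and 697 CPM in KYZY 1, 2 and 3, 21.3, 35.3 and 82.5 CPM in stress 1, 2 and 3, and 23.7, 40.6 and 372 CPM in control 1, 2 and 3. Between 2 and 20 of these markers were at 0 in a library, and Foxl2, which defines granulosa cells, stayed at or below 0.286 CPM. Cyp11a1, from the same list, was at 165 CPM in KYZY 2, 428 CPM in KYZY 3 and 228 CPM in control 3. It lay between 0.48 and 14.7 CPM in the other libraries, so a large part of those high sums came from 1 gene. The summed level of 13 stroma and endothelium markers was 108 CPM in KYZY 3 and 84.6 CPM in control 3, against 23.8 to 38.9 CPM in the other 7 libraries. KYZY 2, KYZY 3, stress 3 and control 3 had the highest cumulus levels in all. Values without these 4 libraries, which leave KYZY 1 alone in its group, are given for Stra6l, Rdh10, Rdh11, Aldh1a2 and Rarb.

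The genes of the pathway were expressed at very unequal levels, which can be compared between genes only per length of exon. On this scale the means over the 9 libraries were 43.5 CPM per kb for Rdh10, 35.2 for Rdh11, 34.4 for Aldh1a2 and 10.98 for Stra6l. The receptors followed far lower, with 1.504 CPM per kb for Rara, 0.726 for Rxra, 0.144 for Rarb, 0.114 for Rxrb and 0.0971 for Rarg. Stra6, the other retinol transporter, came last at 0.0850 CPM per kb. Metaphase oocytes thus held abundant RNA of the enzymes from retinol to retinoic acid and much less RNA of the receptors. Rdh10, Rdh11 and Aldh1a2 were close: their group means ranged from 38.2 to 47.4, from 29.8 to 40.8 and from 28.9 to 44.7 CPM per kb, with SDs of up to 15.9.

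**Figure D1:**
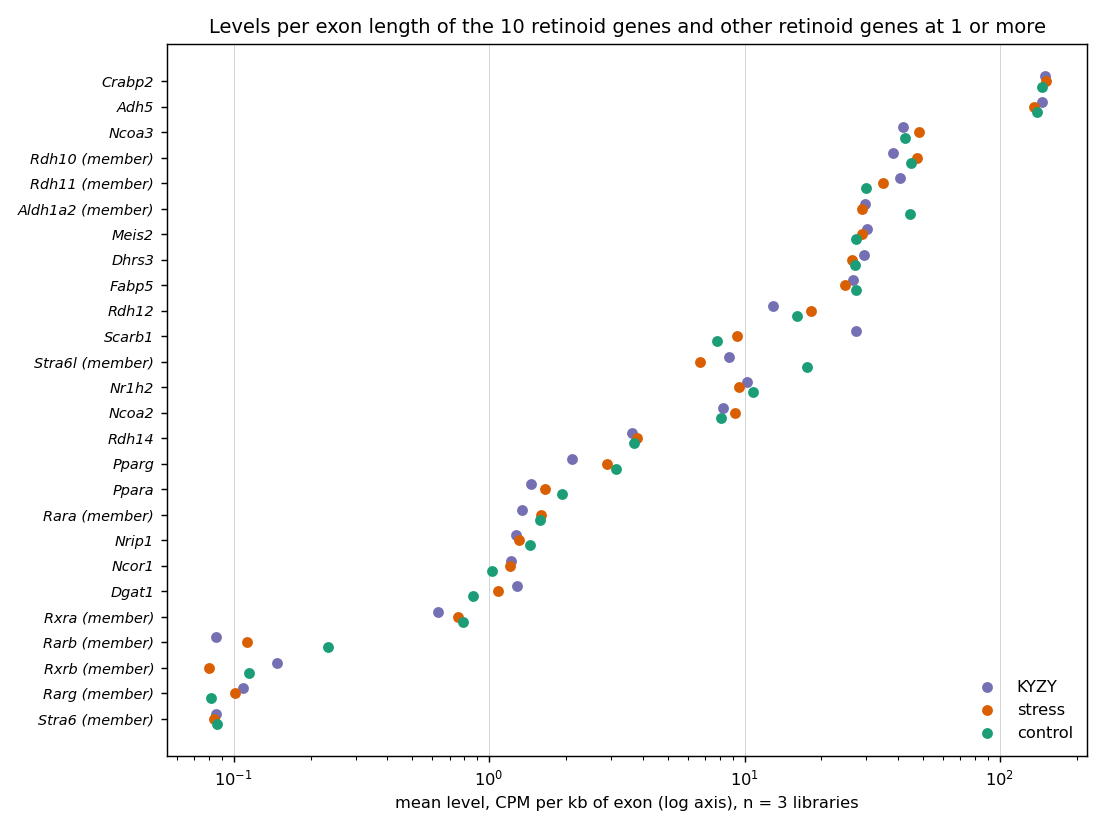
Mean level of each gene per kb of exon (x axis, log scale, CPM per kb) in KYZY, stress and control oocytes (coloured points, 3 libraries each), for the 10 genes and the other retinoid genes at 1 CPM per kb or more. Rdh10, Rdh11 and Aldh1a2 lie between 28.9 and 47.4 CPM per kb, Stra6l between 6.67 and 17.6, and the receptors at or below 1.59; Stra6l and Aldh1a2 are the members above 1 CPM per kb with the control point to the right of both others.

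Stra6l, also called Rbpr2, encodes a membrane receptor for the retinol-binding protein that is known from mouse liver and intestine. The gene lies on chromosome 4 (GRCm38, plus strand, 45848664 to 45887008 in GENCODE and 45824293 to 45887010 in RefSeq), and no annotated exon of another gene overlaps its exons. Its level was 30.2, 36.0 and 40.6 CPM in KYZY 1, 2 and 3, 32.0, 30.1 and 20.2 CPM in stress 1, 2 and 3, and 82.5, 88.3 and 45.9 CPM in control 1, 2 and 3. Every control library lay above every stress and every KYZY library, while the KYZY and stress libraries overlapped. These values rest on 1303 to 9244 counts per library, or about 326 to 2310 read pairs.

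The Stra6l means were 35.6 ± 5.23 CPM in KYZY, 27.4 ± 6.30 CPM in stress and 72.2 ± 23.0 CPM in control oocytes (SD, n = 3 each). As log2 fold changes this was -1.40 (SE 0.284) for stress against control, -1.02 (SE 0.282) in KYZY against control and 0.38 (SE 0.279) in KYZY against stress. The comparisons with control share its 3 libraries, so they are not independent of each other. Of the 13890 genes tested, 7.88% had stress and control libraries without overlap, 4.38% with stress lower, and 7.23% had KYZY and control libraries without overlap, 4.79% with KYZY lower. As Stra6l was chosen on the first of these contrasts, nothing is read from this share for it. Each library pools whole oocytes, so less RNA per oocyte and a smaller share of oocyte RNA in the library cannot be told apart.

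Control 3, the lowest control library for Stra6l, also had the highest cumulus level of its group, and the part of other cells in the result was not tested. Without the 4 libraries of highest cumulus markers, with KYZY 1 as the lone KYZY library, the log2 fold change of Stra6l stood at -1.45 in stress against control and -1.47 in KYZY against control. In KYZY against stress it was -0.02 without them, so the higher KYZY mean rested on KYZY 2 and KYZY 3 against stress 3.

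The RefSeq promoter table lists 2 start sites of Stra6l, both inside the RefSeq gene span and near the GENCODE start. Of the 250-base window before the upstream one, the 98 bases that end just before the GENCODE start (GRCm38.p6, chr4:45848566-45848663, plus strand) are shown because the gene opens the pathway and its level set the control group apart. The whole 250-base window holds none of the core motifs of retinoic acid response elements on either strand. These were searched as AGGTCA, as AGTTCA, as GGGTCA and as GGTTCA, and 38.6% of all 32851 promoter windows of 250 bases hold at least 1 of them.
Stra6l: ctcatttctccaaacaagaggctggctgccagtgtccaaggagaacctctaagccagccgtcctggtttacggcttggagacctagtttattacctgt

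**Figure D2:**
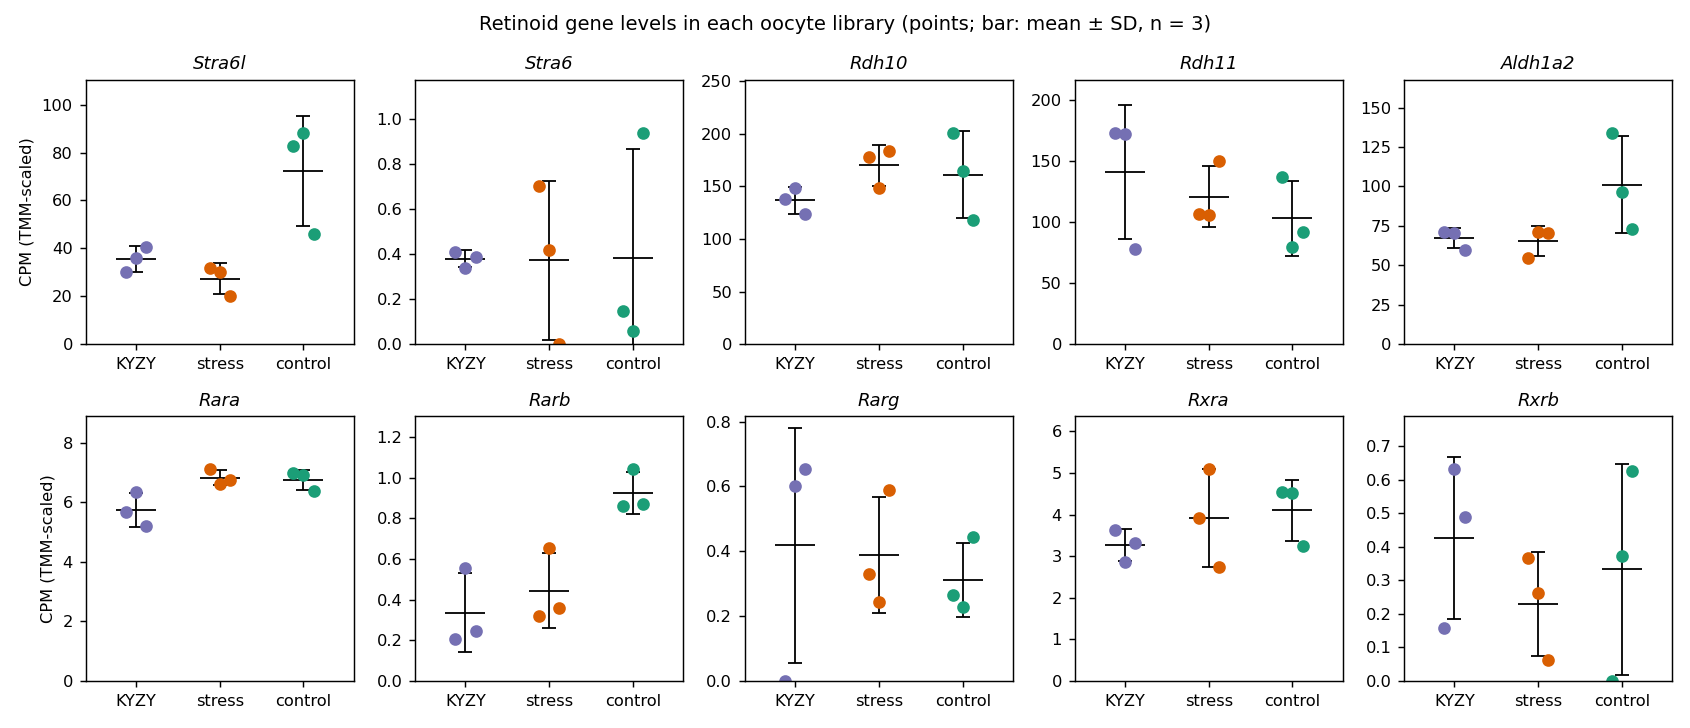
Level of each of the 10 genes (y axis, CPM, each panel with its own scale from 0) in the 3 libraries of the KYZY, stress and control groups (points), with the mean and SD as bars, cut at 0 where the SD exceeds the mean (Stra6 in control). The 3 control points lie above all KYZY and stress points for Stra6l, Aldh1a2 and Rarb, and the groups overlap in most other panels.

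Stra6, the receptor that gave the family its name and the main retinol importer of the eye, was at the edge of detection. It had 0.411, 0.338 and 0.388 CPM in KYZY 1, 2 and 3, 0.699, 0.419 and 0 CPM in stress 1, 2 and 3, and 0.149, 0.0573 and 0.938 CPM in control 1, 2 and 3. No group stood apart, and 3 of the 9 values lay under the floor of their library. What size of difference between groups could have been detected was not tested. At most 72 counts, about 18 read pairs, supported a value. Of the pair of retinol transporters, Stra6l therefore carried nearly all of the RNA in these oocytes.

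Rdh10 oxidises retinol to retinal and is essential for retinoic acid synthesis in the mouse embryo. Over all 9 libraries its mean per kb was the highest of the members, but not in every group. Its level was 138, 149 and 124 CPM in KYZY 1, 2 and 3, 178, 148 and 184 CPM in stress 1, 2 and 3, and 201, 164 and 118 CPM in control 1, 2 and 3. The control libraries spanned the whole range of the other groups. Its log2 fold change was 0.08 (SE 0.233) in stress against control, -0.24 (SE 0.233) in KYZY against control and -0.31 (SE 0.233) in KYZY against stress. None of these passed the edgeR quasi-likelihood test (adjusted p = 1.00, 0.996 and 0.935). With the 4 libraries of highest cumulus markers left out, the value for stress against control was -0.15.

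Rdh11, a membrane-bound enzyme that acts between retinal and retinol, had 173, 172 and 77.7 CPM in KYZY 1, 2 and 3, 107, 106 and 150 CPM in stress 1, 2 and 3, and 137, 79.4 and 92.3 CPM in control 1, 2 and 3. KYZY 3 had the lowest value of all 9 libraries and KYZY 1 the highest, so the spread inside the KYZY group was as wide as that of the whole set. The log2 fold changes of 0.23 (SE 0.335) in stress against control, 0.45 (SE 0.336) in KYZY against control and 0.22 (SE 0.335) in KYZY against stress did not pass (edgeR adjusted p = 1.00, 0.996 and 0.953). With the 4 libraries of highest cumulus markers left out, these fold changes were -0.02, 0.70 and 0.72.

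Aldh1a2 encodes the dehydrogenase that turns retinal into retinoic acid, the main enzyme of this step in the early mouse embryo. It lies on chromosome 9 (GRCm38, plus strand, 71215789 to 71296243). Its level was 71.1, 70.4 and 59.9 CPM in KYZY 1, 2 and 3, 54.6, 71.2 and 70.4 CPM in stress 1, 2 and 3, and 134, 96.3 and 72.9 CPM in control 1, 2 and 3. As with Stra6l, every control library was above every stress and KYZY library, here by a narrow margin for control 3. The KYZY and stress libraries lay together, between 54.6 and 71.2 CPM.

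The Aldh1a2 means were 67.2 ± 6.29 CPM in KYZY, 65.4 ± 9.38 CPM in stress and 101 ± 30.9 CPM in control oocytes (SD, n = 3 each). Stress against control gave a log2 fold change of -0.63 (SE 0.243), with an unadjusted p of 0.0266 and an adjusted p of 1.00 by edgeR. KYZY against control gave -0.59 (SE 0.243), with an unadjusted p of 0.0350 and an adjusted p of 0.996 by edgeR. KYZY against stress gave 0.04 (SE 0.242, edgeR adjusted p = 0.988). The difference from control did not pass over all genes. Control 1 carried much of it: without that library the log2 fold change came to -0.37 in stress against control and -0.34 in KYZY against control, while without the 4 libraries of highest cumulus markers it was -0.86 and -0.67.

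The 250 bases before the Aldh1a2 start (GRCm38.p6, chr9:71215539-71215788, plus strand) are shown because this gene shared the order of the groups with Stra6l. Capitals mark a CCAAT box, a common promoter element that 33.8% of all windows hold on either strand. None of the 4 core motifs is in this window.
Aldh1a2: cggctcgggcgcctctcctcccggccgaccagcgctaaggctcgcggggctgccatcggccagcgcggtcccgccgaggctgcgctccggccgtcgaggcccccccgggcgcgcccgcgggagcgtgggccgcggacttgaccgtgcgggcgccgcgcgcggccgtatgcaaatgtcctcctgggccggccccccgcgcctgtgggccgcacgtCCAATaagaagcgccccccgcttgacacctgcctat

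Among the receptors, Rara was the most abundant RAR. It had 5.67, 6.33 and 5.20 CPM in KYZY 1, 2 and 3, 7.10, 6.62 and 6.75 CPM in stress 1, 2 and 3, and 6.99, 6.90 and 6.37 CPM in control 1, 2 and 3. All 3 KYZY libraries were below all stress and control libraries, but the gap to the nearest of them was 6.33 CPM in KYZY 2 against 6.37 CPM in control 3. Its log2 fold changes were 0.02 (SE 0.200) for stress against control, -0.24 (SE 0.200) in KYZY against control and -0.25 (SE 0.200) in KYZY against stress (edgeR adjusted p = 1.00, 0.996 and 0.935). In KYZY against stress, 9.19% of the genes tested had groups without overlap, 5.44% with KYZY lower.

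Rarb, the receptor gene that is itself a classic target of retinoic acid, was expressed at a low level: 0.205, 0.558 and 0.245 CPM in KYZY 1, 2 and 3, 0.319, 0.654 and 0.357 CPM in stress 1, 2 and 3, and 0.860, 1.04 and 0.872 CPM in control 1, 2 and 3. Every control library was again above every stress and KYZY library. Rarb gave a log2 fold change of -1.05 (SE 0.646) for stress against control and -1.45 (SE 0.655) in KYZY against control, with edgeR p values of 0.133 and 0.0503 unadjusted and 1.00 and 0.996 adjusted. It was -0.40 (SE 0.646, adjusted p = 0.955) in KYZY against stress. Without the 4 libraries of highest cumulus markers the values were -0.95 for stress against control, -2.17 for KYZY against control and -1.22 for KYZY against stress. Without KYZY 2 alone, KYZY against control gave -2.04 and KYZY against stress -0.98, and without stress 2, KYZY against stress gave 0.02. These levels rest on 12 to 109 counts, about 3 to 27.2 read pairs, and KYZY 3 stood at the floor.

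The library protocol keeps no strand, and 34.1% of the annotated Rarb exon bases overlap exons of Top2b, a topoisomerase gene on the other strand, so the Rarb values are uncertain. Top2b had 10.3, 8.62 and 7.37 CPM in KYZY 1, 2 and 3, 8.72, 7.10 and 7.64 CPM in stress 1, 2 and 3, and 6.25, 6.51 and 10.9 CPM in control 1, 2 and 3. Its libraries were ordered otherwise than those of Rarb, with the 2 lowest Top2b values in control 1 and control 2. The share of Rarb counts that came from Top2b was not tested.

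The Rarb promoter shows what a retinoic acid response element looks like, and it was the only one among 20 windows of 9 members that held the core motif repeated directly with 5 bases between, known as DR5. The element lies on chromosome 14 (GRCm38.p6, chr14:16575513-16575529, minus strand), at positions -53 to -37 from the start site, and 0.0883% of the 32851 windows, 29 in all, hold such a repeat. Capitals mark the core motifs. A match describes these letters and says nothing about binding in oocytes.
Rarb: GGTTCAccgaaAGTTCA

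Rarg had 0, 0.602 and 0.653 CPM in KYZY 1, 2 and 3, 0.331, 0.244 and 0.590 CPM in stress 1, 2 and 3, and 0.265, 0.229 and 0.443 CPM in control 1, 2 and 3. Rxrb had 0.158, 0.631 and 0.490 CPM in KYZY 1, 2 and 3, 0.368, 0.262 and 0.0621 CPM in stress 1, 2 and 3, and 0, 0.373 and 0.625 CPM in control 1, 2 and 3. Both receptor genes overlapped between all groups and had at most 41 counts for Rarg and 48 for Rxrb in a library. What size of difference could have been detected with so few counts was not tested. Rxra, the more abundant RXR and the partner shared by many nuclear receptors, had 3.62, 2.85 and 3.33 CPM in KYZY 1, 2 and 3, 3.91, 5.09 and 2.75 CPM in stress 1, 2 and 3, and 4.53, 4.51 and 3.255 CPM in control 1, 2 and 3. Its log2 fold changes were -0.06 (SE 0.294) in stress against control, -0.33 (SE 0.295) in KYZY against control and -0.26 (SE 0.295) in KYZY against stress (edgeR adjusted p = 1.00, 0.996 and 0.935).

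**Figure D3:**
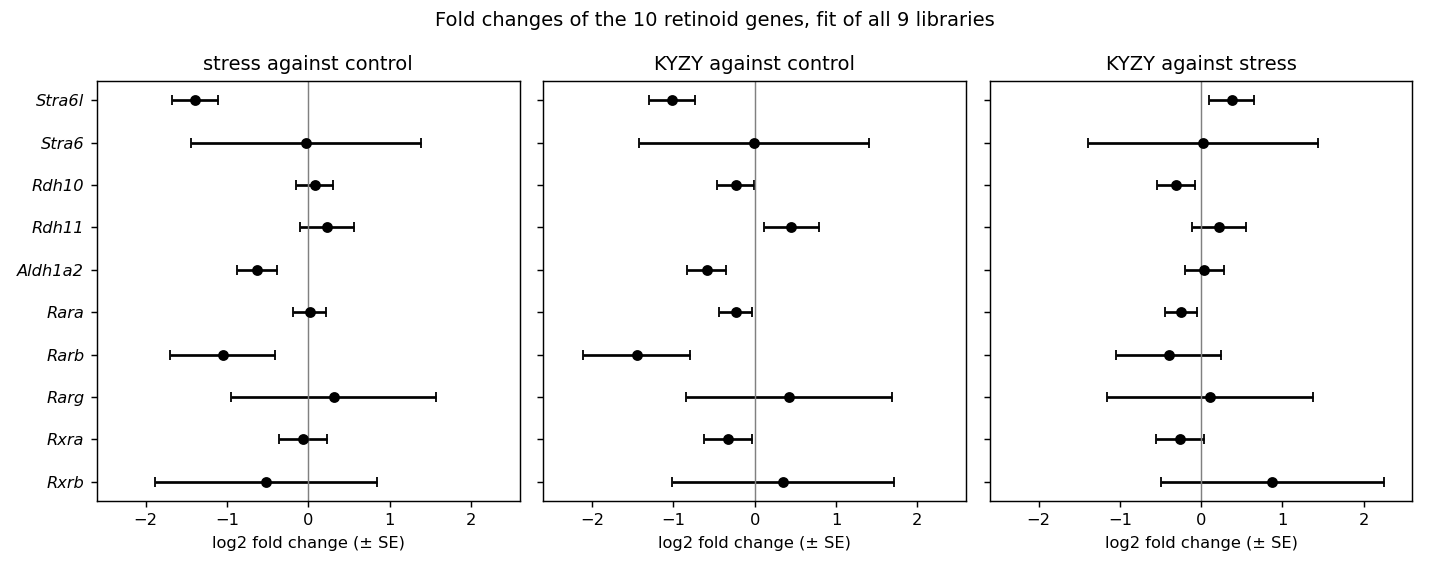
Log2 fold change with SE (x axis) of the 10 genes (rows) in stress against control, KYZY against control and KYZY against stress, from the fit of all 9 libraries. Aldh1a2 and Rarb lie left of 0 by more than 1 SE in both comparisons with control. Stra6l also lies left of 0 in both, but it was chosen on stress against control, so nothing is read from this. The long bars belong to Stra6, Rarg, Rxrb and Rarb, which had few counts.

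Across the 9 members other than Stra6l, 0 passed at an adjusted p of 0.05 in stress against control, in KYZY against stress or in KYZY against control by edgeR. The share of all 13890 genes that passed was 0% in each comparison; DESeq2 called 23, 12 and 1 genes in the same order, with 0 of the 9 members among them. Unadjusted p values were under 0.05 in 1 of the 9 members in stress against control, 0 in KYZY against stress and 1 in KYZY against control, against 2.69%, 3.98% and 2.74% of all genes. Groups did not overlap in 2 of the 9 with stress lower than control (Aldh1a2 and Rarb), in 1 with KYZY lower than stress (Rara) and in 3 with KYZY lower than control (Aldh1a2, Rara and Rarb). Over all genes the shares in these directions were 4.38%, 5.44% and 4.79%. None had groups apart in the higher direction, where the background was 3.51% in stress against control, 3.76% in KYZY against stress and 2.43% in KYZY against control. The median log2 fold change of the 9 was -0.03, 0.02 and -0.24 in the same 3 comparisons, beside -0.03, 0.01 and -0.003 over all genes.

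The other genes of the pathway were taken from a list of 62 retinoid genes in 6 roles. Of these, 35 had enough counts to be tested and 17 never reached 12 counts, among them 7 at 0 in all libraries. By edgeR, 0 of the 35 passed in either direction in any of the 3 comparisons, with smallest adjusted p values of 1.00 in stress against control, 0.935 in KYZY against stress and 0.996 in KYZY against control. Unadjusted p values were under 0.05 for 0, 3 and 1 of the 35 in that order, against 2.69%, 3.98% and 2.74% of all genes, and DESeq2 called 0 of them. Groups did not overlap in 2 of the 35 with stress lower than control, Bco1 and Nr1h2, in 1 with KYZY lower than stress, Rdh12, and in 0 between KYZY and control. These 3 genes are named after their values were seen. Over all genes, 4.38% had stress lower than control and 5.44% KYZY lower than stress without overlap. The median log2 fold change of the 35 was -0.15 in stress against control, 0.10 in KYZY against stress and 0.12 in KYZY against control.

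Of the enzymes that act between retinol and retinal, 10 of 17 were tested. Adh5, an alcohol dehydrogenase best known for removing formaldehyde, was at 234 ± 29.2 CPM in KYZY, 219 ± 53.9 in stress and 223 ± 27.9 CPM in control oocytes (SD, n = 3 each). Dhrs3, which reduces retinal back to retinol, was at 71.4 ± 4.57, 63.9 ± 18.5 and 65.5 ± 18.3 CPM in the KYZY, stress and control groups. Rdh12, a retinal reductase of photoreceptors, had 26.6, 21.3 and 24.3 CPM in KYZY 1, 2 and 3 and 28.95, 41.9 and 30.9 CPM in stress 1, 2 and 3, a log2 fold change of -0.50 (SE 0.215, edgeR adjusted p = 0.935). In control 1, 2 and 3 it was at 25.55, 35.7 and 27.8 CPM, across both other groups.

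Among the genes that bind or break down retinoic acid, Crabp2, which carries it to the RAR receptors, had the highest mean per kb in the list, 149.5 CPM per kb beside 140.7 for Adh5, a difference smaller than the SD between libraries. It had 194, 149 and 77.7 CPM in KYZY 1, 2 and 3, 168, 186 and 68.0 CPM in stress 1, 2 and 3, and 194.5, 131 and 84.1 CPM in control 1, 2 and 3. The third library of each group was its lowest, and the group means of 140, 141 and 137 CPM in KYZY, stress and control oocytes lay within 1 SD of each other. Fabp5, which carries retinoic acid to another receptor, Ppard, was at 26.2 ± 6.01 CPM in KYZY, 24.4 ± 3.26 in stress and 27.1 ± 5.74 CPM in control oocytes (SD, n = 3 each). The degrading enzymes Cyp26a1, Cyp26b1 and Cyp26c1 were not tested, with at most 0.184 CPM in any library.

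In uptake and storage, Scarb1, a lipoprotein receptor that also takes up carotenoids, had 21.8, 132 and 66.7 CPM in KYZY 1, 2 and 3, 20.4, 25.0 and 30.6 CPM in stress 1, 2 and 3, and 14, 17.9 and 31.2 CPM in control 1, 2 and 3. The highest values were in KYZY 2 and KYZY 3, whose summed cumulus markers were 379 and 697 CPM. Blood and immune markers summed to 65.2 CPM in KYZY 2, against 2.02 to 11.75 CPM in the other libraries, and control 3 had 31.2 CPM of Scarb1 beside a cumulus sum of 372 CPM. The part of other cells in the Scarb1 level was not tested. The log2 fold change was 1.54 (SE 0.582) in KYZY against stress and 1.81 (SE 0.587) in KYZY against control (edgeR adjusted p = 0.935 and 0.996). Dgat1, which makes triglycerides and retinyl esters, was at 2.44 ± 1.93 CPM in KYZY, 2.05 ± 0.282 in stress and 1.64 ± 0.726 CPM in control oocytes (SD, n = 3 each). Bco1, which cleaves carotene to retinal, was at 0.920, 0.855 and 0.590 CPM in stress 1, 2 and 3, against 0.959, 1.56 and 1.39 CPM in control 1, 2 and 3.

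Of the receptor partners and coregulators, 10 of 13 were tested. The coactivators Ncoa3 and Ncoa2, which nuclear receptors recruit once bound to ligand, were at 313 ± 21.6 and 71.0 ± 11.5 CPM in KYZY, 362 ± 46.5 and 78.8 ± 24.5 CPM in stress, and 319 ± 31.4 and 69.4 ± 17.3 CPM in control oocytes (SD, n = 3 each). Nr1h2, a sterol receptor that pairs with RXR, was at 23.5, 25.6 and 23.7 CPM in stress 1, 2 and 3, against 27.8, 28.5 and 26.3 CPM in control 1, 2 and 3. Among the target genes, Meis2, a homeobox gene induced by retinoic acid in other cells, was at 131 ± 3.00 CPM in KYZY, 126 ± 6.57 in stress and 119 ± 20.4 CPM in control oocytes (SD, n = 3 each). The meiotic target Stra8 was at 0 in all 9 libraries.

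Several retinoid genes of low level were high in a few libraries only, among them Tgm2, a transglutaminase, and Aldh1a1, a second retinoic acid enzyme. Tgm2 had 0.300, 1.94 and 5.33 CPM in KYZY 1, 2 and 3, 0.454, 0.244 and 0.186 CPM in stress 1, 2 and 3, and 0.149, 0.287 and 4.62 CPM in control 1, 2 and 3. Aldh1a1 was at 3.18 CPM in KYZY 3 and 1.58 CPM in control 3, and at most 0.258 CPM in the other 7 libraries. Aldh1a3, the third enzyme of its kind, reached at most 0.443 CPM. Adh1, Adh7 and Rarres2, named after their values were seen, had the same 2 libraries highest: 8.04, 2.78 and 1.63 CPM in KYZY 3 and 2.94, 2.201 and 0.899 CPM in control 3.

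KYZY 3 and control 3 were also the libraries with the highest stroma and endothelium markers. Dcn, a matrix protein gene of stromal cells, was at 19.9 CPM in KYZY 3 and 16.3 CPM in control 3, against 0.149 to 0.569 CPM in the others, and none of the 13 markers was at 0 in either library. Of the oviduct epithelium markers, Ovgp1 was at 7.75 and 4.74 CPM in KYZY 3 and control 3, against at most 2.09 CPM elsewhere. Foxj1 was at 1.00 and 0.846 CPM there, against at most 0.331 CPM elsewhere. The sum of all 12 oviduct markers went the other way, with 274 and 294 CPM there and 337 to 510 CPM elsewhere. The part of stroma, oviduct or other cells in the levels of Tgm2, Aldh1a1, Adh1, Adh7 and Rarres2 was not tested. In control 3 both Stra6l and Aldh1a2 were at the lowest level of the control group, while in KYZY 3 Stra6l was at the highest and Aldh1a2 at the lowest level of the KYZY group.

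**Figure D4:**
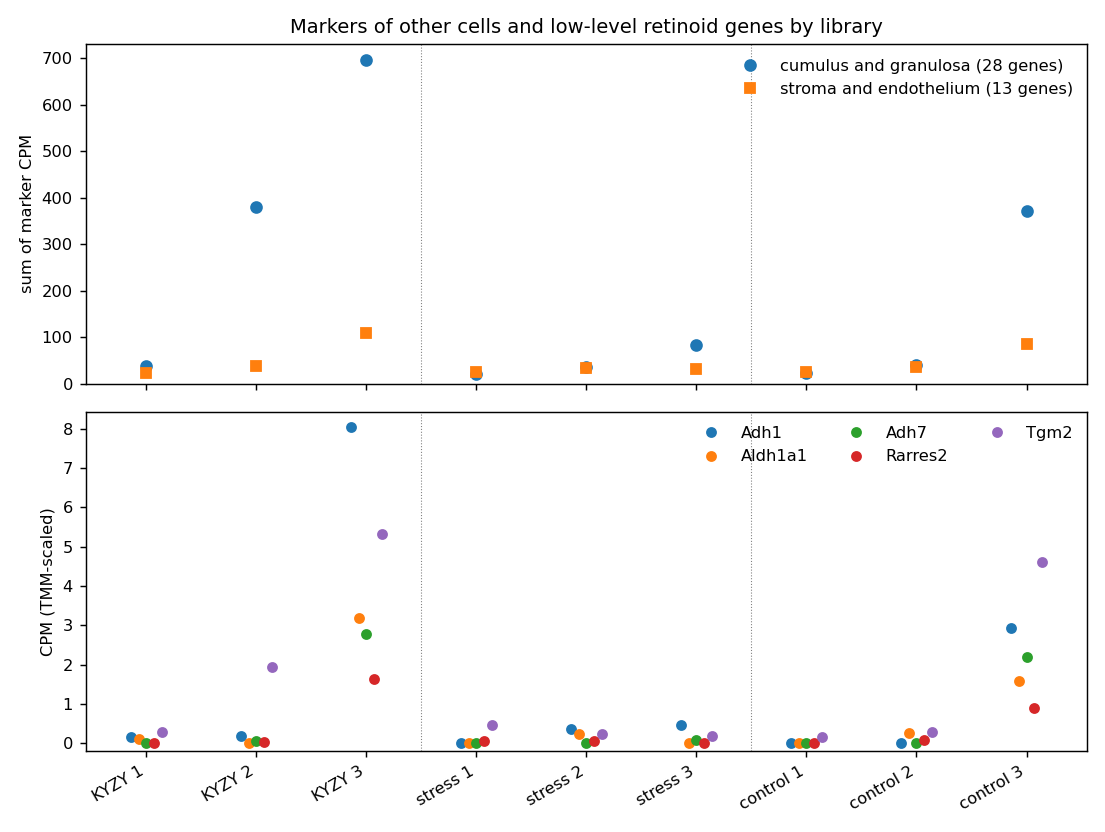
Upper panel: summed CPM of 28 cumulus and granulosa markers (circles) and 13 stroma and endothelium markers (squares) in each library; lower panel: CPM of 5 retinoid genes of low level in the same libraries, ordered KYZY, stress, control. KYZY 3 and control 3 have the highest stroma levels (108 and 84.6 CPM) and the highest values of all 5 genes.

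Genes whose pattern over the 9 libraries was most like that of Stra6l were ranked by the Pearson correlation of log2(CPM + 1) among 5113 genes with a mean of at least 10 CPM. The 5 nearest were Tmem250-ps (r = 0.916), Emp2, a tetraspan membrane protein gene (0.909), Stx6, a syntaxin of endosomal membrane traffic (0.891), Gpt2, a mitochondrial alanine aminotransferase (0.887), and 1300002E11Rik (0.868). The correlations are over 9 libraries that include the contrast for which Stra6l was chosen, and they carry no test. Among the members, Aldh1a2 had r = 0.746 and rank 35, Rdh10 r = 0.143 and rank 1673, and Rdh11 r = -0.415 and rank 4129.

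In the like genes the group means lay closer together than in Stra6l. As Stra6l was chosen for its difference between stress and control, nothing is read from this. Emp2 had 33.8, 28.9 and 36.1 CPM in KYZY 1, 2 and 3, 34.3, 30.6 and 23.4 CPM in stress 1, 2 and 3, and 42.1, 45.3 and 37.1 CPM in control 1, 2 and 3. The ratio of the stress mean to the control mean was 0.709 for Emp2, 0.699 for Gpt2, 0.818 for Stx6, 0.799 for Tmem250-ps and 0.652 for 1300002E11Rik, against 0.380 for Stra6l and 0.647 for Aldh1a2. Stress 3 had the lowest Stra6l level and also the lowest Emp2, Stx6, Tmem250-ps and 1300002E11Rik levels of all 9 libraries. These genes were picked for their likeness to Stra6l over the same libraries, so a shared lowest library is no separate result.

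**Figure D5:**
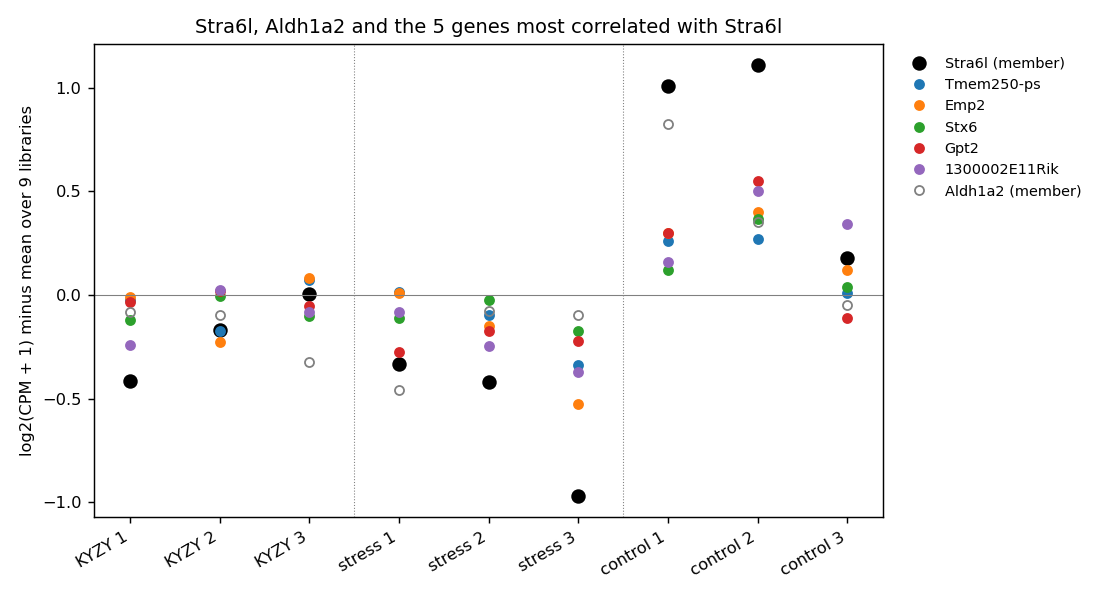
Level of Stra6l, Aldh1a2 and the 5 genes most correlated with Stra6l in each library, as log2(CPM + 1) minus the gene's mean over the 9 libraries (y axis), with libraries in the order KYZY, stress, control (x axis, dotted lines between groups). Stra6l, which was chosen for its difference between stress and control, has the widest range. All 7 genes lie above 0 in control 1 and control 2, and most lie below 0 in the stress libraries.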

How the data were processed

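The deposited tables hold expected counts, estimated reads per gene symbol in whole numbers, with a table for each library. No header names the unit, which was inferred from whole-number values of unequal totals. The submitters' processing notes name bcl2fastq, Trim Galore, HISAT2, StringTie, DESeq2, GRCm38 and mm10, without roles or settings. All 9 libraries were fitted in R 4.3.3 with edgeR 4.0.16: TMM scaling, filterByExpr (minimum count 10, minimum total 15; 13890 of 24736 genes kept, with 99.9832% of counts), 1 mean per group, robust quasi-likelihood F tests, 2-sided, with Benjamini-Hochberg adjustment over all genes kept. The code was tested on simulated data. Alternatives were DESeq2 1.42.0, other scaling and filters, counts divided by 4, 2 groups only, the replicate number as a block, and left-out libraries. Members and lists were chosen with earlier results of these data known. All 10 members, the 2 highest genes of each pathway role and the 5 genes most correlated with Stra6l were named.

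Same-numbered libraries are of different mice. Their deviations from the group means correlated above 0.1 in all 3 pairs of stress with control (0.165 to 0.376). Over all 9 pairs they lay between -0.196 and 0.643, with 7 pairs above 0.1. KYZY 2 had -0.196 with stress 2 and -0.0992 with control 2. As the pairs differed, the number was no block in the main fit. Replicates are separate mice. Exon lengths are GENCODE M21 protein-coding unions; promoters are RefSeq (GRCm38.p6), with windows for 9 of 10 members.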

Additional observations from a re-analysis of the deposited data

How the results depend on the processing

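Of the 9 members other than Stra6l and of the listed pathway genes, 0 passed under any alternative that could be fitted: 18 in stress against control and 17 in each comparison with KYZY, fewer for Stra6, Rarg and Rxrb. Counts over all genes were 0 in each comparison, with 373, 553 and 380 genes at an unadjusted p under 0.05 in stress against control, KYZY against stress and KYZY against control. In that order the DESeq2 Wald test called 23, 12 and 1 genes, and the fit without the 4 libraries of highest cumulus markers 148, 115 and 119, with KYZY 1 alone in its group, assumed to vary like the others, and 2 residual degrees of freedom. A fit of only KYZY and stress called 1 gene. With the replicate block, 1 gene was called in a fit of stress and control alone, chosen after seeing the data, and 0 in all 9 libraries. The block changed no other call. In all 9 libraries it raised the genes at an unadjusted edgeR p under 0.05 to 472, 1043 and 686 in the same order. Leaving out 1 library gave 0 to 2, 0 to 1 and 0 to 3 genes, the highest always without control 3. The cause was not tested.

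Of 30 fold changes of members, 14 kept their sign under every alternative, among them those of Stra6l, Aldh1a2 and Rarb against control. In these genes every control library lay above every stress and KYZY library, so leaving out libraries could hardly reverse the sign. Stra6l was also chosen on stress against control, and nothing is read from its kept sign. Stra6l ranged from -1.63 to -1.22 in stress against control and from -1.47 to -0.84 in KYZY against control, and Rarb from -1.46 to -0.87 and from -2.17 to -1.20. Stra6, Rarg and Rxrb changed sign in all 3 comparisons and had too few counts for the stricter filter or for counts divided by 4. Rdh10, Rdh11, Rara and Rxra changed sign in stress against control only, and Stra6l, Aldh1a2 and Rarb in KYZY against stress only.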
